A study of Homo sapiens with 34 samples.

Results

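BMAL1 was called without CLOCK at 428 of the 4001 genomic intervals into which the BMAL1 and CLOCK peaks of *Bmal1*:*luc* U2OS cells had been merged. The intervals were chosen by the peak calls themselves. An interval was counted when it held a BMAL1 peak in control cells and a BMAL1 peak in 6AN-treated cells, and no CLOCK peak in either condition. These intervals sat just upstream of the transcription starts of active, GC-rich promoters. Few of the promoters had the E-box on which BMAL1 and CLOCK are known to meet, and a GC-rich word known from the binding site of NRF1 was frequent in them. None of the intervals lay within 10 kb of the starts of the 19 clock genes examined. The RNA of the genes beside the intervals met the threshold for a 24 hr rhythm no more often than that of all loci.

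BMAL1 and CLOCK are basic helix-loop-helix proteins that are known to act as a dimer. The dimer binds the E-box CACGTG and switches on the *PER*, *CRY*, and *NR1D* genes, whose products in turn repress the dimer or the gene of BMAL1. BMAL1 has other known partners, such as NPAS2, a close relative of CLOCK. 6AN, or 6-aminonicotinamide, is turned into an analog of NADP+ in cells and inhibits the pentose phosphate pathway, which supplies NADPH.

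U2OS is a human osteosarcoma line, and these cells stably carried luciferase under the *Bmal1* promoter. For ChIP-seq, cells were treated for 24 hr with 5 mM 6AN or with DMSO as control, and there was 1 library for each antibody and condition. For RNA-seq, dexamethasone-synchronized cells under 5 mM 6AN or DMSO were collected at 12 time points labelled 0 to 44 hr, 4 hr apart, with 1 library for each time point and condition. All groups share the reporter and the line, and the DMSO control carries no inhibitor. Synchronization is stated for the RNA-seq cells, and whether the ChIP-seq cells were synchronized is not given in the sources used here. *VIM*, *SPARC*, *COL1A1*, *RUNX2*, *ALPL*, and *BGLAP*, markers of mesenchyme and bone, were expressed, whereas *COL1A2* had a median of 0.03 FPKM in control. Of the markers of other cell types, *PTPRC*, *PECAM1*, and *EPCAM* had medians of 0.02, 0.30, and 1.13 FPKM in control, and *KRT8*, a keratin, had 98.6 FPKM in control and 49.8 in 6AN. The medians of *COL1A1* were 129 and 29 FPKM, those of *SPARC* 325 and 126, those of *ALPL* 5.78 and 3.68, and those of *VIM* 899 and 724. Each of these 5 markers was lower in 6AN at all 12 time points, and their part in the results was not tested.

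The ChIP-seq libraries differed in depth, which bears on the absence of CLOCK. The authors' files give totals of 7462051 tags for BMAL1 in control and 7896480 in 6AN, but 4078867 and 4550722 for CLOCK. The score of an interval is the mean score of its merged peaks, and a peak's score is its tags after scaling each library to 10000000 tags. The lowest score of a peak found in 1 library alone was 11.4 for BMAL1 in control and 10.8 for BMAL1 in 6AN, but 19.6 for CLOCK in control and 14.3 for CLOCK in 6AN. Of the 428 intervals, 55.8% scored at least 19.6 and 95.1% scored at least 14.3. These are the lowest scores seen in such peaks and not detection limits, since CLOCK peaks merged with BMAL1 peaks have no score of their own. The intervals are those where CLOCK was not called, which is not the same as CLOCK being absent. A CLOCK interval lay within 1 kb of 18 of them. Some of these nearly touched, with gaps of 9 bp at the interval in *RPS29*, 32 bp at *NAGK*, and 64 bp at *ELK4*. At such places CLOCK was called beside BMAL1, though in another interval.

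The intervals made up 27.1% of the 1577 that held BMAL1 in control and 18.5% of the 2314 that held BMAL1 in 6AN. A further 258 intervals held BMAL1 in both conditions and CLOCK in at least 1 condition. Another 2125 held BMAL1 in 1 condition without CLOCK, and 796 held CLOCK without BMAL1. The scores chose the intervals in part, since the intervals were selected on peak calls in all 4 libraries, so they are given as a description with no test. Their median score was 20.4 (quartiles 17.2 and 24.1), against 29.2 with CLOCK and 15.8 for BMAL1 in 1 condition. The lowest score among them was 12.7, and *TBC1D24*, *CRBN*, and *MTG2* were beside the next lowest at 13.0. Each of the 428 consisted of exactly 2 peaks, 1 from each BMAL1 library, and all lay on assembled chromosomes, with the largest number, 44, on chromosome 19. One value for each interval was given for both conditions together, so the strength of BMAL1 in control and in 6AN cannot be compared at single intervals.

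The sequences of some of the promoters were picked for the words they hold. RefSeq promoter sequences run from 250 bases before the start of a gene to 50 bases after it, and 433 of them held the centre of 1 of 304 intervals. The stretches printed here are the part of such an interval that lies upstream of the start and outside every annotated gene, on GRCh38.p14, read 5′ to 3′ along the strand of the gene. The first 5 are intervals with the palindrome of NRF1, a transcription factor of mitochondrial and other housekeeping genes, and the palindrome is in capitals.
CCNT2, chr2:134918607-134918791, plus strand: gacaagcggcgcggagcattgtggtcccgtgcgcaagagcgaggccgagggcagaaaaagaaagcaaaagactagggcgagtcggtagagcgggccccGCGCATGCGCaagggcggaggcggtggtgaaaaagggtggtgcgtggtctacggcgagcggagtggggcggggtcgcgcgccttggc
MIS18A-AS1, chr21:32279066-32279204, plus strand: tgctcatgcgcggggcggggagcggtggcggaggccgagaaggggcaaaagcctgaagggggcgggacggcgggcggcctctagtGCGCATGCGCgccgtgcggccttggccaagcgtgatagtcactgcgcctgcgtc
POP4, chr19:29606125-29606262, plus strand: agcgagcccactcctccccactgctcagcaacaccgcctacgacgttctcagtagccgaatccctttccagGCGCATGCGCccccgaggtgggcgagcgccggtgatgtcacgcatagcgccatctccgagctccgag
LTO1, chr11:69675398-69675529, minus strand: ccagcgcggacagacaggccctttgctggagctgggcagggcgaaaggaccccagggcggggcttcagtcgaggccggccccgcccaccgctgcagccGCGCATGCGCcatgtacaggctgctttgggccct
ABI1, chr10:26861088-26861208, minus strand: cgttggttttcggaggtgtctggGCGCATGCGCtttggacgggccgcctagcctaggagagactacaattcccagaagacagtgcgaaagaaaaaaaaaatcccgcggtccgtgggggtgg

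*CCNT2* encodes a cyclin of the elongation factor P-TEFb, *POP4* a subunit of RNase P, and *ABI1* a regulator of the actin cytoskeleton. *MIS18A-AS1* is a noncoding RNA next to *MIS18A*. The scores of these intervals were 61.8 for *CCNT2*, 59.4 for *MIS18A-AS1*, 43.8 for *POP4*, 25.6 for *LTO1*, and 22.9 for *ABI1*. The 3 highest of them are among the 10 highest of all 428.

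A smaller number of promoters had the canonical E-box. Examples are shown with CACGTG in capitals, because this is the word that BMAL1 and CLOCK are known to bind together.
MCRIP1, chr17:81833295-81833424, minus strand: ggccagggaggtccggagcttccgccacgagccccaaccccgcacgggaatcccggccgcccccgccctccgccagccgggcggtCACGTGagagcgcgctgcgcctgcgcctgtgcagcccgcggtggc
PARP6, chr15:72272663-72272804, minus strand: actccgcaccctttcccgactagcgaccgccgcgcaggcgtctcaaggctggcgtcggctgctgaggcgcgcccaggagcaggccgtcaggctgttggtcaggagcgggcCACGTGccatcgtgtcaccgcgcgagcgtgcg
IGF2R, chr6:159968832-159969060, plus strand: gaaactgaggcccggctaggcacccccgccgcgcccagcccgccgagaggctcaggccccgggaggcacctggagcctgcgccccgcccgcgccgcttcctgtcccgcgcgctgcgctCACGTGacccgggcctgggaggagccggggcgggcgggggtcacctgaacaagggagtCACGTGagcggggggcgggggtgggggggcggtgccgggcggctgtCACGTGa

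The promoter of *IGF2R*, the receptor that carries lysosomal enzymes, had CACGTG 3 times in the stretch, the promoters of *MCRIP1* and *PARP6* once. Most intervals had neither CACGTG nor the NRF1-type word CATGCGC. Of those, *PHF12*, a chromatin protein gene, and *ACTN4*, the gene of an actin crosslinker, are shown with CTGCGC and its reverse complement in capitals, because this was the 6-base word whose share most exceeded that of expressed promoters.
PHF12, chr17:28951519-28951601, minus strand: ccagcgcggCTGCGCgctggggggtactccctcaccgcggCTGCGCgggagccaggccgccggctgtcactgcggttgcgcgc
ACTN4, chr19:38647448-38647626, plus strand: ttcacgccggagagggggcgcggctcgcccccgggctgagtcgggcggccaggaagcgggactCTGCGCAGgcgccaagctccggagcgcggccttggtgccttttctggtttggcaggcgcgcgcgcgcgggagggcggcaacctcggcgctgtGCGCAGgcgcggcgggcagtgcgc

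For contrast, 2 promoters with BMAL1 in both conditions and CLOCK in either or both are shown with CACGTG in capitals. *LAMP1*, a lysosomal membrane protein gene, had the word 4 times, and *EIF5A2*, a translation factor gene, had it 2 times.
LAMP1, chr13:113296989-113297153, plus strand: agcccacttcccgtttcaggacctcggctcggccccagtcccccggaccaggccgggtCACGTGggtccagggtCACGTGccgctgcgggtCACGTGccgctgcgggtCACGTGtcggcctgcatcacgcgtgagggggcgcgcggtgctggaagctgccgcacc
EIF5A2, chr3:170908667-170908887, minus strand: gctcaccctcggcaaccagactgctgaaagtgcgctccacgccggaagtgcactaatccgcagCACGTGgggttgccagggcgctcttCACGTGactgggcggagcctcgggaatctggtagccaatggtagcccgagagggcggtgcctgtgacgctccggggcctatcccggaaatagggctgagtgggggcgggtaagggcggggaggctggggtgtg

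The position of the intervals was not used to choose them. Starts were listed for the chromosomes of 412 of the 428 intervals, and 345 of these (83.7%, 95% Wilson interval 79.9 to 87.0) had their centre within 1 kb of a start. The share was 58.4% (52.2 to 64.3) of 250 intervals with BMAL1 and CLOCK, 66.8% (64.7 to 68.8) of 2021 with BMAL1 in 1 condition, and 37.7% (34.3 to 41.1) of 770 with CLOCK alone. It was 60.0% over all intervals. The intervals without CLOCK were thus the most promoter-bound of these classes, and their Wilson interval overlapped none of the others. No test was made, because intervals of the same library are not replicates, and the Wilson intervals cover counting error only.

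**Figure D1:**
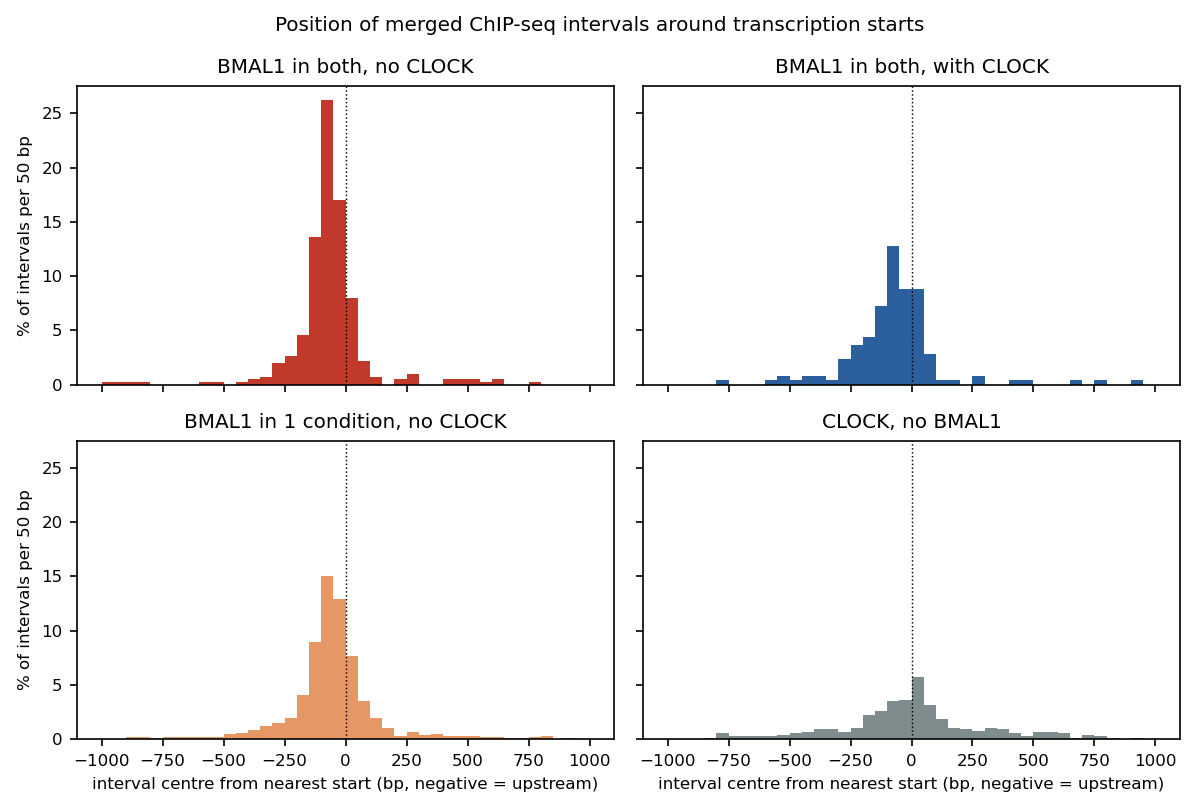
Distance in bp from the centre of each merged interval to the nearest listed transcription start, negative upstream, as a percentage of the intervals of each of 4 classes in bins of 50 bp. The bin from 100 to 50 bp upstream holds 26.2% of the intervals with BMAL1 in both conditions and no CLOCK, and the CLOCK intervals without BMAL1 are spread around the start.

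Within 1 kb, the centre lay at a median of 69 bp upstream of the start, with quartiles at 112 and 22 bp upstream. It was upstream in 284 of 345 (82.3%), against 74.0% with CLOCK, 73.0% for BMAL1 in 1 condition, and 49.7% for CLOCK alone. Starts on both strands lay within 1 kb of 131 of the 345 (38.0%, 33.0 to 43.2), against 35.6% (28.3 to 43.7) with CLOCK and 31.7% (29.3 to 34.2) for BMAL1 in 1 condition. *CCNT2* and *CCNT2-AS1* are 1 such pair, with starts on opposite strands near the same centre. The shares with starts on both strands overlapped in their intervals between the classes that held BMAL1.

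The other 67 intervals were over 1 kb from a listed start, 47 of them over 10 kb. Since the list of starts is not complete, these were also set beside the ends of annotated genes, and 45 of the 67 lay within 1 kb of one, while 22 did not. Among the 67 was the interval at chr22:20117237-20117441, score 42.2, which lay in *RANBP1*, a regulator of the RAN transport system. On chromosome 8, for which no starts were listed, 14 of 16 intervals lay within 1 kb of a gene end. Another of the 67, with a score of 31.4, lay close to the tip of chromosome 12 at chr12:10154-10356.

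As many as 6 intervals lay on chromosome 21 around copies of the 45S ribosomal RNA genes. The highest score of all 4001 intervals, 935.4, belonged to chr21:8219954-8220168, whose centre was 759 bp past the end of *RNA45SN2*. The corresponding positions at *RNA45SN3* and *RNA45SN1*, 808 and 763 bp past their ends, held intervals with scores of only 19.4 and 23.6. A further 2 intervals lay 1522 and 1487 bp past the same 2 genes, and 1 lay inside *RNA45SN3*. These copies are near-identical, so the way reads were divided among them is uncertain, and the scores say little about any 1 copy. Another 4 intervals in this region held BMAL1 in both conditions and CLOCK in at least 1, with scores up to 84.0.

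The canonical E-box CACGTG was found in 56 of the 433 promoters that held the centre of an interval (12.9%, Wilson interval 10.1 to 16.4). With CLOCK, it was found in 99 of 165 (60.0%, 52.4 to 67.2), and with CLOCK alone in 77 of 182 (42.3%, 35.4 to 49.6). BMAL1 in 1 condition without CLOCK gave 12.8% (11.2 to 14.7). Of all 35116 promoters of this length, 7.26% had the word, and of the 15147 promoters of expressed loci, 9.35% (8.90 to 9.82) did. The share without CLOCK was slightly above that of expressed promoters and far below that with CLOCK. The promoters without CLOCK were rich in GC, with a median of 69.3%, against 70.3% with CLOCK and 64.7% for expressed loci. Among expressed promoters with a GC content between the quartiles of these intervals (65.0 and 73.7%), CACGTG was found in 11.6% (10.7 to 12.5). Of the 221 promoters without CLOCK in that range, 33 had it (14.9%, 10.8 to 20.2), and the Wilson intervals overlapped. Matches were counted on both strands, and a match describes the sequence and shows no binding.

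Where CACGTG was present, it was not centred under BMAL1 without CLOCK. The nearest match lay a median of 57.5 bp from the centre in 39 intervals, and 18 of them (46.2%) had it within 50 bp. In 145 intervals with BMAL1 in 1 condition and no CLOCK, the median distance was 52.5 bp, and 71 (49.0%) had it within 50 bp. In 74 intervals with CLOCK, the median distance was 20 bp, and 61 (82.4%) had it within 50 bp. The scores of intervals with and without CACGTG had medians of 21.1 and 20.4, and their quartiles overlapped.

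The NRF1-type word CATGCGC was found in 133 of the 433 promoters (30.7%, 26.6 to 35.2). It was in 12.1% (7.98 to 18.0) of those with CLOCK, in 19.0% (17.0 to 21.1) of those with BMAL1 in 1 condition, and in 3.85% (1.88 to 7.73) of those with CLOCK alone. Expressed promoters had it in 6.69%, and expressed promoters of the same GC range in 7.84% (7.11 to 8.64). Within that GC range, 29.9% (24.2 to 36.2) of the promoters without CLOCK had it. The whole palindrome, as printed above, was in 46 of the 433 (10.6%, 8.06 to 13.9). It was in 7.1% (5.9 to 8.6) with BMAL1 in 1 condition and in 6.7% (3.8 to 11.5) with CLOCK. Both of these Wilson intervals overlapped that of the 433. It was in 1.65% with CLOCK alone, in 1.99% of expressed promoters, and in 1.24% of all. CATGCGC is part of this palindrome, so the 2 counts overlap. These words were picked after the sequences had been seen, so the shares are a description.

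**Figure D2:**
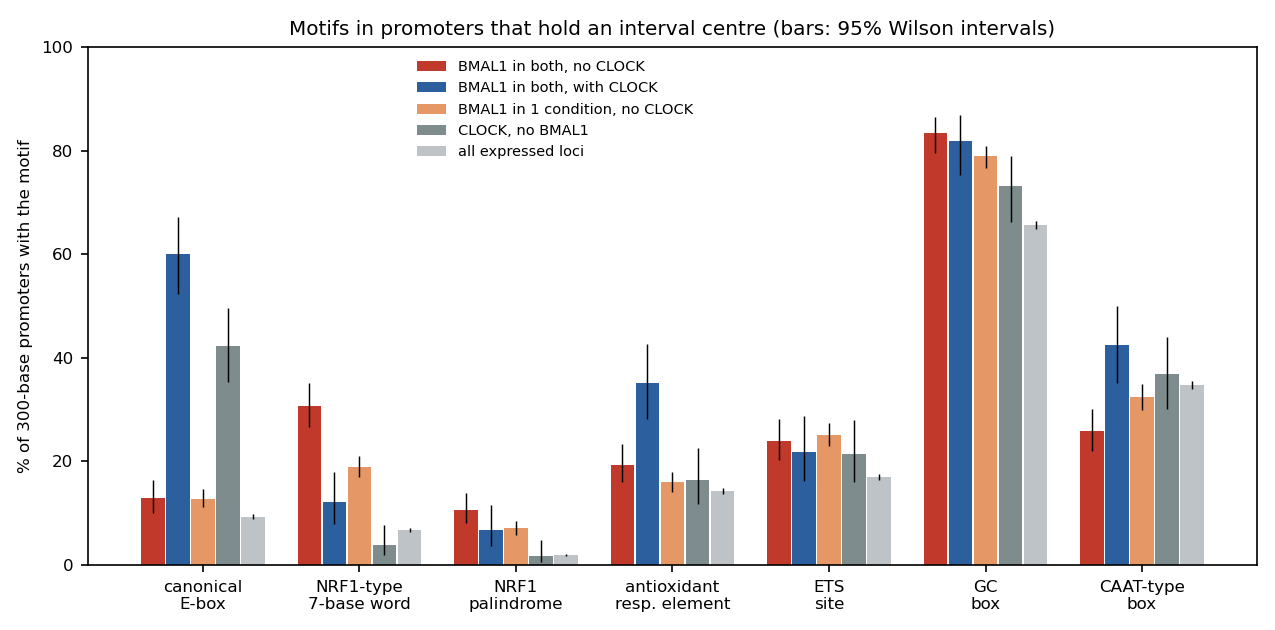
Percentage of RefSeq promoters of 300 bases with each of 7 motifs, for promoters that hold the centre of an interval of 4 classes and for all expressed loci, with 95% Wilson intervals as error bars. The E-box bar without CLOCK stands at 12.9%, against 60.0% with CLOCK, and the NRF1-type bar is highest without CLOCK, at 30.7%.

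CATGCGC lay closer to the centre than CACGTG did. Its nearest match was a median of 27.5 bp away in 96 intervals, and 72 (75%) had it within 50 bp, at a median of 64.5 bp upstream of the start. The GC box GGGCGG, the site of SP1-type factors, is a common promoter word and had a median distance of 31.5 bp, while the CCAAT box had 72.0 bp. By score, CATGCGC was found in 23.7% of the 76 intervals of lowest score, in 34.2% and 31.6% of the next sets of 76, and in 36.8% of the 76 of highest score. The matching values for CACGTG were 11.8%, 9.21%, 17.1%, and 13.2%.

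**Figure D3:**
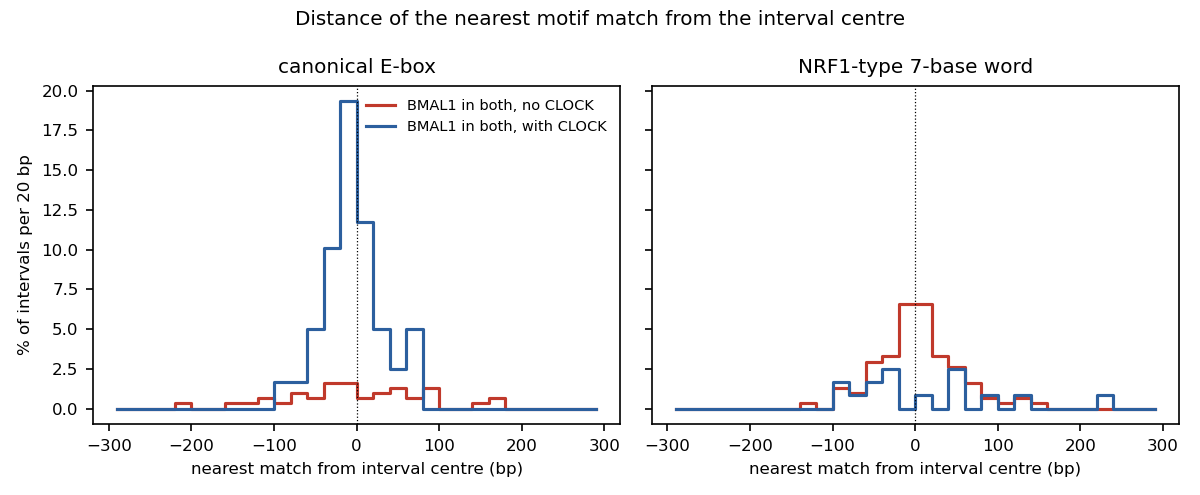
Distance in bp of the nearest match to the canonical E-box (left) and to the NRF1-type word (right) from the interval centre, as a percentage of intervals in bins of 20 bp. With CLOCK, the E-box matches gather at the centre (82.4% within 50 bp), and without CLOCK the NRF1-type matches do (75% within 50 bp). Intervals with BMAL1 in 1 condition are not drawn, and 65.5% of their NRF1-type matches lay within 50 bp.

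Over all 2080 words of 6 bases, counted with their reverse complements, CTGCGC exceeded expressed promoters by the most. It was in 74.6% of the promoters without CLOCK, in 57.8% with BMAL1 in 1 condition, in 52.7% with CLOCK, and in 37.4% of expressed promoters. In the opposite direction, CACGTG led the words that were more frequent with CLOCK. Among 8192 words of 7 bases, CGCAGGC led, with 48.5% against 31.6% with BMAL1 in 1 condition, 20.6% with CLOCK, and 16.7% of expressed promoters. CTGCGC and CGCAGGC are rich in GC, and their shares were not compared within a GC range. Of the other motifs, the ETS site CCGGAAG was found in 24.0% without CLOCK, 21.8% with CLOCK, 25.1% for BMAL1 in 1 condition, and 17.0% of expressed promoters. GGGCGG was in 83.4%, 81.8%, 78.9%, and 65.7% of the same sets. Within the GC range above, GGGCGG was in 86.4% of the promoters without CLOCK and 85.0% of expressed promoters, and CCGGAAG in 23.5% and 19.7%. CCAAT was in 25.9% without CLOCK, 42.4% with CLOCK, and 34.8% of expressed promoters, and in 30.8% and 33.6% of the promoters without CLOCK and of expressed promoters in that GC range. The antioxidant response element TGACNNNGC, the site of NRF2, was in 19.4% without CLOCK, 35.2% with CLOCK, and 14.4% of expressed promoters. The E-box variant CACGTT was in 4.39% without CLOCK, 13.9% with CLOCK, and 5.96% of expressed promoters. The AP-1 site TGANTCA was in 2.77%, 10.9%, and 5.30%, and in 2.81% of expressed promoters of that GC range. Neither tandem GGAAT nor tandem TTAGGG nor a run of CA repeats was in any.

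None of the clock genes examined was among the neighbours. Of 20 clock genes, 19 had a listed start, and 0 had one of the 428 intervals within 10 kb of it. Intervals with BMAL1 in both conditions and CLOCK in at least 1 lay within 10 kb of 11 of the same 19 starts. Examples are *PER1*, *PER2*, *CRY1*, *NR1D1*, and *DBP*. Of 16 partners of BMAL1 and other E-box factors, 15 had a listed start, and 0 had an interval without CLOCK within 10 kb. The levels of these factors come from tables normalized separately and carry no test. *ARNTL*, the gene of BMAL1, had a median of 6.68 FPKM in control (5.52 to 11.2) and 7.07 FPKM in 6AN (3.29 to 12.6). *CLOCK* had 7.97 FPKM in control (6.83 to 8.97) and 5.94 FPKM in 6AN (4.98 to 7.15) and was lower in 6AN at all 12 time points. *NPAS2*, the known alternative partner, had 29.8 FPKM in control and 16.9 in 6AN and was also lower at all 12. *NRF1* had 5.73 FPKM in control and 4.95 in 6AN, and was higher in 6AN at 1 of 12 time points.

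The genes beside the intervals were active. The 345 intervals within 1 kb of a start lay beside 578 genes, 482 of which matched 393 loci of the expression tables. A mean of at least 1 FPKM over the 24 libraries was reached by 374 of the 393 loci (95.2%, 92.6 to 96.9), against 48.7% of all 28690 loci, and by 95.1% of the loci beside intervals with CLOCK. The median FPKM of the 374 was 21.4 in control (middle 50% from 9.67 to 49.4) and for 6AN it was 20.9 (from 10 to 47.9). The medians of all 13979 loci tested were 11.3 and 11.1. With CLOCK, the 156 loci had medians of 20.3 and 23 FPKM. In control, the highest means belonged to *RPL18*, a ribosomal protein gene, with 1105 FPKM, and to *NPM1*, the gene of nucleophosmin, with 1103 FPKM.

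Gene families beside the intervals were counted by gene symbol after the genes had been seen. Translation initiation factors made up 7 of the 374 loci (1.87%, against 0.386% of all loci tested), including *EIF2S1*, *EIF3D*, *EIF3K*, *EIF4E2*, and *EIF4H*. The 7 also include a locus that joins *EIF4A1* and *SENP3*, and the start nearest to its interval was that of *SENP3*. Nuclear ribonucleoprotein genes made up 6 (1.60%, against 0.293%), among them *HNRNPD*, *HNRNPA2B1*, and *SNRNP70*. Genes of the respiratory chain also made up 6 (1.60%, against 0.780%), including *SDHB*, *SDHD*, and *UQCRFS1*. Proteasome genes made up 3 (0.802%, against 0.365%), namely *PSMC3*, *PSMC4*, and *PSMD2*. Mitochondrial ribosomal protein genes made up 3 (0.802%, against 0.572%), and SR splicing factor genes 1 (0.267%, against 0.079%). Transmembrane protein genes with a TMEM symbol, grouped by name, made up 9 (2.41%, against 1.27%). Ribosomal protein genes made up 2 (0.535%, against 0.558%), and zinc finger genes 10 (2.67%, against 3.68%). These counts are small and carry no test.

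The strongest intervals beside expressed loci lay at genes with varied roles and with levels that differed to unequal degrees between the conditions. *TTC28-AS1*, a noncoding RNA and the highest at a score of 72.5, had 15.2 to 27.5 FPKM in control (median 20.7) and 15.4 to 21.5 in 6AN (median 18.8). *PITPNB*, a phospholipid transfer gene beside the same interval and outside the rule for named genes, had 86.1 to 102.9 FPKM in control (median 97.1) and 67.7 to 91.5 in 6AN (median 85.8), and was lower in 6AN at all 12 time points. *CCNT2* had 8.13 to 10.6 FPKM in control (median 9.26) and 6.90 to 10 in 6AN (median 8.52). *POP4* had a median of 21.6 FPKM in both conditions, from 18.6 to 24.6 in control and from 17.4 to 25.2 in 6AN. The ranges of all 4 genes overlapped between the conditions.

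*MCRIP1*, listed as *FAM195B* in the expression tables, had 95.3 to 159 FPKM in control (median 131) and 157 to 192 in 6AN (median 176). It was higher in 6AN at 11 of 12 time points, with a mean difference of 0.48 on the log2(FPKM + 1) scale. *EIF2S1*, the alpha subunit of the initiation factor eIF2, had 50 to 62.4 FPKM in control (median 56.9) and 40.5 to 52.3 in 6AN (median 47.0), and was lower in 6AN at all 12. *ACTN4* had 137 to 190 FPKM in control (median 158) and 120 to 166 in 6AN (median 131), and was also lower at all 12. *ANAPC2*, a subunit of the anaphase-promoting complex, *LTAP1*, listed as *C1orf43*, and *FBXO31*, an F-box gene, were higher in 6AN at all 12, by 0.14, 0.26, and 0.31 on the same log2 scale. The named gene was not always the one with the nearest start. That start belonged to *ATP6V1D* at the interval of *EIF2S1* and to *UBAP2L* at the interval of *LTAP1*. For *CABIN1*, *PHF12*, *DDX51*, *ABCF3*, *ZBTB14*, and *SLC35F5*, the other genes of the 15 strongest such intervals, the mean difference lay between -0.17 and 0.22 on this scale.

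Across the 374 loci, the median difference between 6AN and control was -0.06 on the log2(FPKM + 1) scale (quartiles -0.24 and 0.13), and the SD of this median over the 12 time points was 0.02. It was -0.04 over all loci tested and 0.05 beside intervals with CLOCK. The control and 6AN tables had been normalized separately, so these differences have no test, and a difference shared by all loci cannot be told apart from the scaling. A locus was counted as higher or lower in 6AN when its mean difference was at least 0.5 in size and had the same sign at all 12 time points. By this rule, 10 of the 374 were higher (2.67%), where 4.93% of all loci tested were. Beside intervals with CLOCK, 23 of 156 were higher (14.7%). Lower in 6AN were 33 of the 374 (8.82%), where 9.33% of all loci were, a share close to this background, and 4 of 156 beside intervals with CLOCK (2.56%). In bulk RNA, a change in the number of cells in a state and a change per cell cannot be told apart.

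**Figure D4:**
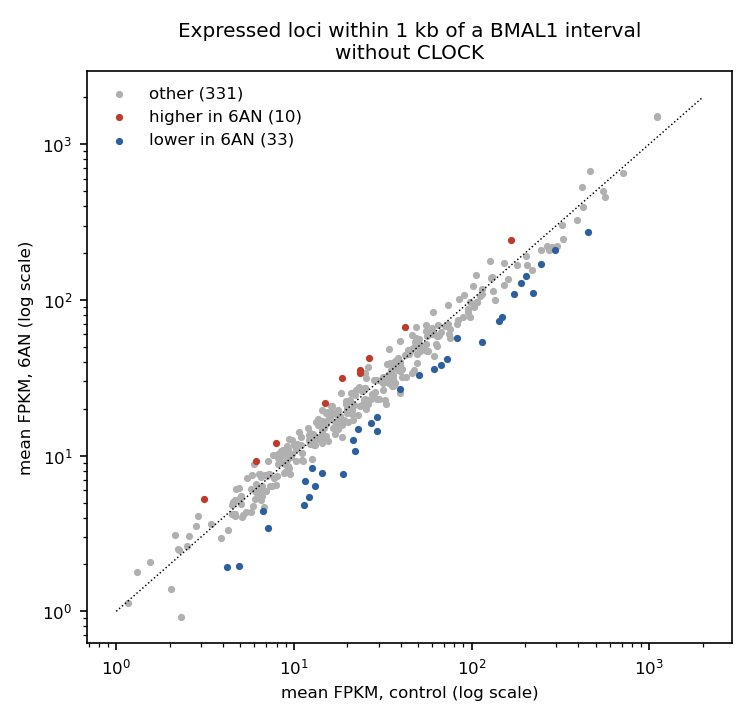
Mean FPKM over 12 time points in control (horizontal, log scale) and in 6AN (vertical, log scale) for the 374 expressed loci within 1 kb of a BMAL1 interval without CLOCK. Most points lie along the dotted line of equality, with 10 called higher and 33 called lower in 6AN.

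The loci with the largest increases included 2 related kinases. *OSER1*, a gene known to respond to oxidative stress, had 14.5 to 21 FPKM in control (median 18.6) and 27.3 to 36.9 in 6AN (median 31.8), with a difference of 0.73 on the log2(FPKM + 1) scale. *PIM3* had 32.6 to 51.1 FPKM in control (median 43.1) and 57.8 to 80.8 in 6AN (median 64.6), and *PIM1*, also a serine/threonine kinase, had 24.5 to 30.1 (median 26.5) and 32.1 to 66.4 (median 41.6). *CRTC1*, a coactivator of CREB, had 2.43 to 3.84 FPKM in control and 4.07 to 7.44 in 6AN. *PARP6*, whose promoter with CACGTG is printed above, had 19.2 to 27.1 FPKM in control and 30.9 to 42.3 in 6AN. For all 5, the lowest value in 6AN exceeded the highest in control.

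The 5 loci with the largest decreases are described next. *CENPU*, a kinetochore gene, had 15.5 to 21.5 FPKM in control (median 19.1) and 5.37 to 12.2 in 6AN (median 7.57), with a difference of -1.21 on the log2(FPKM + 1) scale. *WDHD1*, a replication factor gene, had 9.91 to 12.8 FPKM in control (median 11.7) and 3.16 to 6.05 in 6AN (median 4.64). *DTL*, whose product marks replication proteins for degradation, had 10.1 to 15.6 FPKM in control (median 11.6) and 3.37 to 7.61 in 6AN (median 5.54). The start nearest to the interval of *DTL* was that of *INTS7*. *JPT1*, listed as *HN1*, had 94.8 to 169 FPKM in control and 39.8 to 74.7 in 6AN, and *LPXN*, a focal adhesion gene, had 3.93 to 5.71 and 1.54 to 3.0. Here all 12 values in 6AN lay below all 12 in control for each of the 5 genes.

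Rhythms were tested with limma, as a moderated F test of a 24 hr cosine and sine on log2(FPKM + 1), within each table. At p of at most 0.01, 0 of the 374 loci were called in control, where 1.07% of all loci tested were, and 4 in 6AN (1.07%), where 1.12% of all loci were. Beside intervals with CLOCK, 8 of 156 were called in control (5.13%) and 13 in 6AN (8.33%). No locus had a Benjamini-Hochberg adjusted p of at most 0.05 in limma in either table, among these or all 13979, and 12 and 8 of the 374 had an unadjusted p under 0.05, where 5.17% and 4.77% of all loci did. Without 20 or 32 hr, 3 loci were called in control, where 1.05% and 1.32% of all loci were. Without 4, 8, 12, 20, or 40 hr, 2 were called in 6AN, where 0.887 to 1.11% of all loci were. With 1 library for each time point, p measures only the scatter around the fitted curve.

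The 4 loci called in 6AN had fitted amplitudes between 0.14 and 0.31 on the log2(FPKM + 1) scale. *SMIM14* had the smallest limma p in 6AN (0.00045, adjusted 0.65), with 6.43 to 8.96 FPKM (median 7.47), and an amplitude of 0.16 on the log2(FPKM + 1) scale. It was followed by *IPO11*, an importin gene, with 7.45 to 9.83 FPKM (median 8.38) and a limma p of 0.0021, and by *C6orf136*, with 9.75 to 16.1 FPKM (median 12.5) and a limma p of 0.0064. *ANKRD37*, the other locus called, had 1.73 to 4.05 FPKM and a limma p of 0.0094. In control, the limma p of *SMIM14* was 0.69 and that of *C6orf136* was 0.87. The smallest in control belonged to *FBXO5*, an inhibitor of the anaphase-promoting complex (16.6 to 26.3 FPKM, limma p = 0.011), *RAD52*, a recombination gene (7.32 to 17.0 FPKM, limma p = 0.012), and *UQCC4*, listed as *C16orf91* (8.51 to 12.8 FPKM, limma p = 0.019). Whether a rhythm differed between the conditions was not tested.

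**Figure D5:**
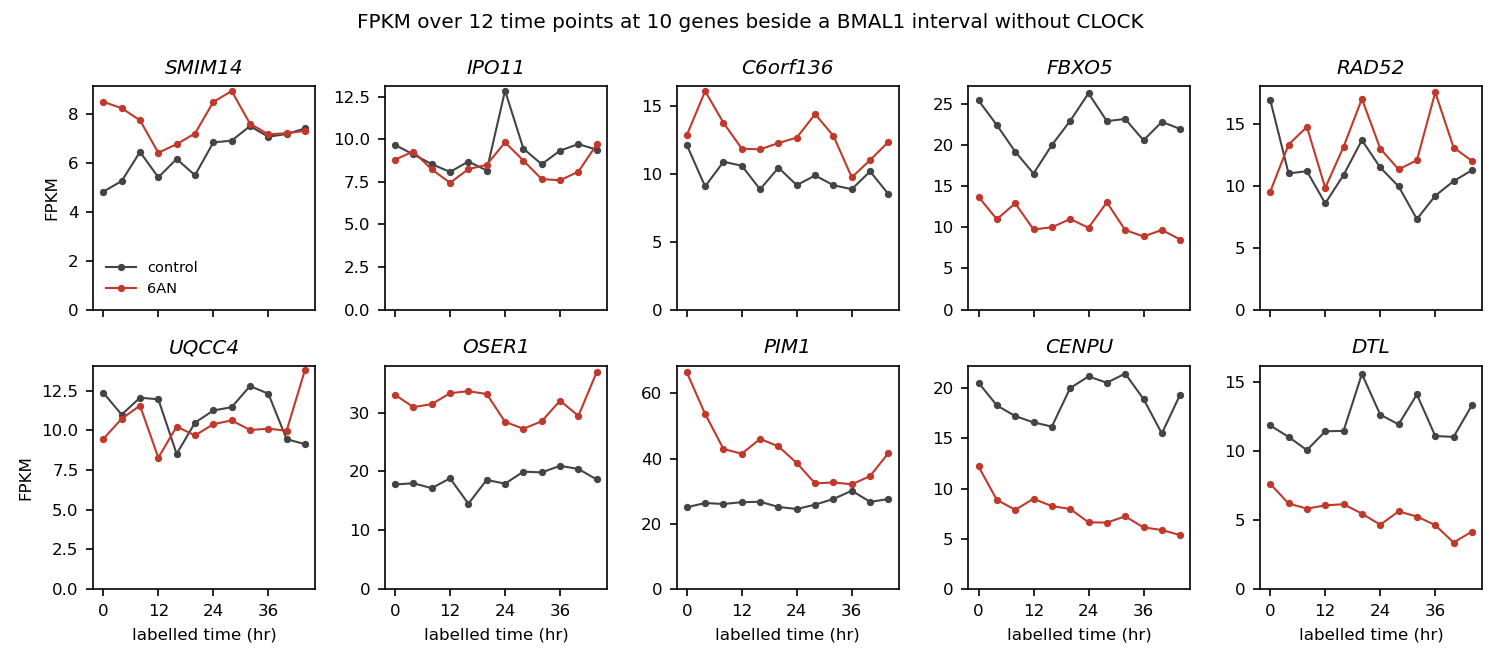
FPKM at 12 labelled times (hr) in control and in 6AN, 1 library per point, for 10 genes beside a BMAL1 interval without CLOCK. *FBXO5*, *CENPU*, and *DTL* lie lower and *OSER1* and *PIM1* higher in 6AN at every time, and *SMIM14* has the smallest rhythm p in 6AN.

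The promoters with the E-box and with the NRF1-type word could be set side by side at the RNA level. The 39 intervals with CACGTG lay beside 50 expressed loci, with medians of 34.5 FPKM in control and 33.5 in 6AN, and the 96 intervals with CATGCGC lay beside 104, with 17.5 and 15.6. The 179 intervals with neither word lay beside 198 expressed loci, with 21.5 in both conditions. The median differences between 6AN and control were -0.07 with CACGTG, -0.09 with CATGCGC, and -0.03 with neither on the log2(FPKM + 1) scale. Of the 4 loci called rhythmic in 6AN, 3 lay beside an interval whose promoter was scanned. Of these 3, 0 had CACGTG there and 2 had CATGCGC, against 12.8% and 31.6% of all scanned intervals. Counts among 3 loci are too small to compare with these shares. The interval beside *ANKRD37* lay outside the promoter windows and was not scanned. These groups share loci, so no comparison between them was tested.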

How the data were processed

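The authors deposited FPKM per locus in 2 separately normalized tables, for control and for 6AN, and a list of merged ChIP-seq peaks on hg38 whose HOMER score is the mean of the joined peaks, joined within 200 bp. Signal columns of the deposited site lists served only for tag totals. The submitters' processing notes name TopHat, Bowtie, Bowtie2, Cufflinks, and HOMER, with versions not given in the sources used here. RefSeq starts (GRCh38.p14) tied intervals to genes within 1 kb. Matches by symbol or synonym tied genes to loci. No genome was used, so motifs were counted in RefSeq promoters of 300 bases in place of 200 bp around each centre. A pseudocount of 1 and a minimum mean of 1 FPKM were applied. Rhythms were fitted with limma 3.58.1 in R 4.3.3, tested on simulated data. Other values came from Python 3.11.15, pandas 2.3.3, NumPy 2.4.6, and SciPy 1.17.1, and plots from matplotlib 3.10.9. Depth of the RNA-seq libraries is unknown. Groups came from the sample labels, and 0 per-sample columns were left out. The named genes were those of the strongest intervals, the 15 strongest at expressed loci, list genes within 10 kb, the 3 smallest rhythm p values per condition, and the 5 largest and 5 smallest differences. The members and lists were chosen with earlier results of these data known.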

Additional observations from a re-analysis of the deposited data

How the results depend on the processing

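The number of intervals was 428 on assembled chromosomes alone and with exactly 2 peaks, 410 without CLOCK within 1 kb, and 280 with a score of at least the median of all intervals (18.5). The share near a start was 87.1% within 5 kb, 80.8% within 500 bp, and 78.0% when either end of a locus of the expression tables served as the start. The E-box share lay between 12.9 and 13.4% under 3 alternatives. Windows of other widths around the centre and shifted windows were not run for want of a genome. Rhythmic loci in control numbered 5 of 374 with a linear trend in the limma fit (1.43% of all loci) and 12 when p up to 0.05 was called (5.17% of all loci). The 0.05 threshold gave 8 loci for 6AN (4.77% of all loci). Leaving out each time point gave 0 to 3 loci in control (3 without 20 or 32 hr, 2 without 0, 16, or 28 hr, 1 without 4, 8, 40, or 44 hr) and 2 to 5 in 6AN (2 without 4, 8, 12, 20, or 40 hr). The median difference between 6AN and control was -0.0193 after centring on all loci tested, and -0.06 to -0.05 when each time point was left out. The other alternatives kept each of these values within the spread or within 1.5 times. The level differences pair the libraries by labelled time point, and the rhythm fits lie within 1 table and have no pairs.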
